A study of Macaca mulatta with 12 samples.

Results

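The DEAD and DEAH box RNA helicases were followed as a family in rhesus macaques given ovarian steroids. The tissue was the dorsal raphe, a midbrain nucleus rich in serotonin neurons. Members were all probe sets (groups of short probes that together read 1 transcript) whose only gene symbol in the platform's probe table begins with DDX or DHX, or is EIF4A1, EIF4A2 or EIF4A3. This gave 29 genes of the 8226 genes with a probe set of their own, and 36 of 10943 such probe sets. They comprise 19 DDX genes, 9 DHX genes and EIF4A3. A further 5 probe sets name a helicase beside other symbols (EIF4A1, EIF4A2, DDX5 and DDX39B are the helicases), so no level is given for those genes.

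The series holds 12 arrays of a human Affymetrix design, each hybridized with biotin-labelled RNA from 1 female monkey, in 4 groups of 3. The groups are placebo, estrogen, progesterone, and estrogen plus progesterone (called both hormones here), given as steroid-filled Silastic capsules under the skin over the last 1 month of life. The labels code the placebo monkeys OVX, the usual abbreviation for ovariectomized, and give no dose or age. Progesterone arrays are titled with that hormone alone but with the codes of the combined group. They were grouped by their source names, which have P codes.

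DEAD and DEAH box proteins use ATP to unwind short RNA duplexes or to strip proteins from RNA, and are named for amino acid motifs in their shared catalytic core. Members act at nearly every step of an RNA's life: splicing, export, translation initiation, decay and the assembly of ribosomes. DDX17 and its closest paralog DDX5 also bind steroid hormone receptors, among them estrogen receptor alpha, as transcriptional coregulators.

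Values are intensities on a linear scale as deposited, except the summed levels of cell type markers, which are linear values after quantile normalization. Changes are differences of group means of log2(intensity + 8.26) after quantile normalization, fitted with limma. A probe set passed the test where its p, adjusted by Benjamini-Hochberg over 7535 tested probe sets, was under 0.05, and counts at an unadjusted p under 0.05 are given as a description. Probes designed for human transcripts were read with macaque RNA, so levels are not compared between probe sets. In tissue RNA, fewer cells of a type and less RNA per cell cannot be told apart.

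Of the 36 helicase probe sets, 24 from 20 genes were bright enough to be tested. The other 12 lay in the lowest 40% of the array by mean, which corresponds to an intensity of about 49.5. All later counts are over the 24 tested probe sets and not over the whole family.

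Some arrays stood apart. The estrogen 1 and both hormones 1 arrays gave a 28S ribosomal RNA control signal of 841 and 1354, against at most 179 on the other 10 arrays. Their ratios of 3' to 5' GAPDH signal were 2.45 and 2.05, against 0.892 to 1.46 elsewhere, and they separated from the rest on the first principal component, which held 22.9% of the variance. On the second component, with 14.96%, the 3 progesterone arrays lay at -18.2 to -9.16 and the others at -5.41 to 5.12, except placebo 1 at 33.8, the array farthest from 0. Serotonin neuron markers gave a signal on every array, though no detection call was used. The summed level of the 8 markers named on the array, SLC6A4, FEV, GATA3, GATA2, LMX1B, SLC18A2, DDC and MAOB, was 1328 to 1696 with placebo, 1453 to 1564 with estrogen, 1344 to 1503 with both hormones and 1087 to 1291 with progesterone. The lowest single reading among the 8 was 36.5, for LMX1B. With progesterone 2 of the 8 were lower than placebo at an unadjusted p under 0.05 and 0 higher. The median log2 change of the 8 against placebo was -0.10 for estrogen, -0.45 for progesterone and -0.15 for the combination. TPH2 and HTR1A were not named by the array.

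DDX17 stood lower on the 3 progesterone arrays than on any other array. Its brighter probe set, 41260_at, read 2171, 1957 and 2116 with placebo, 2136, 2318 and 2383 with estrogen, 1223, 1098 and 1042 with progesterone, and 2232, 1824 and 2254 with both hormones. The highest progesterone reading lay below the lowest reading of each other group. With placebo, estrogen and both hormones the deposited readings overlapped.

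**Figure D1:**
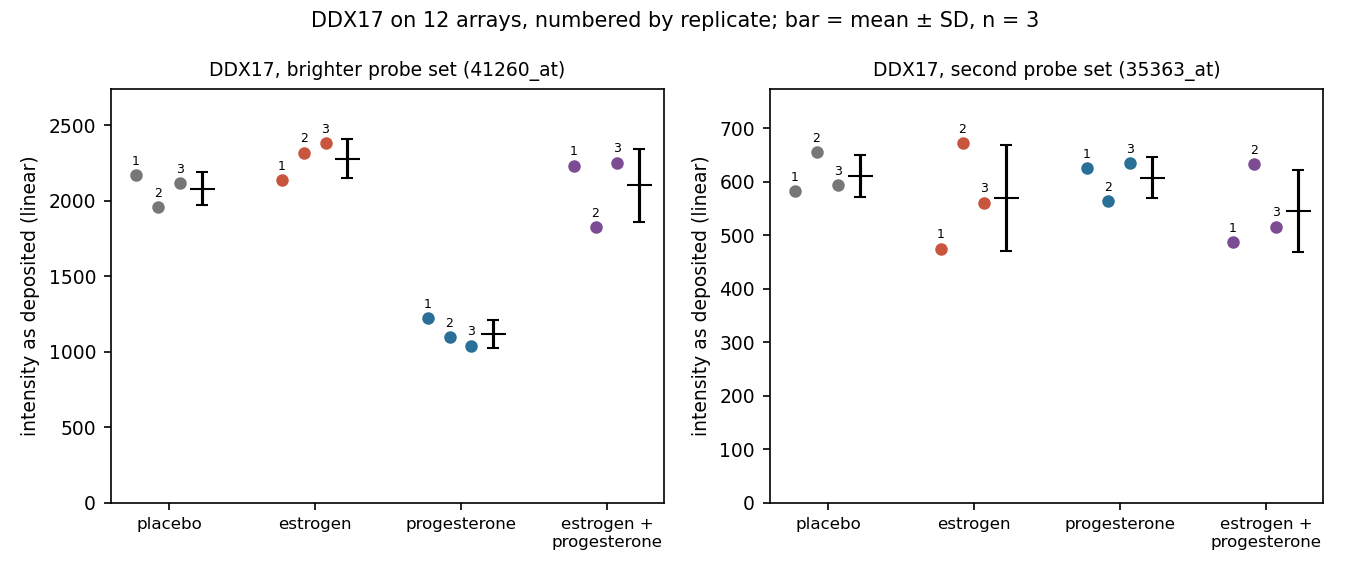
Intensity as deposited (linear axis from 0) of the brighter (41260_at) and the dimmer (35363_at) DDX17 probe set in the 4 groups. Points are arrays numbered by replicate, and bars are the mean with SD, n = 3. With the brighter probe set the 3 progesterone arrays lie between 1042 and 1223, below all 9 others, while with the dimmer one the groups overlap.

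Mean intensities of this DDX17 probe set were 2081 ± 112 for placebo, 2279 ± 128 for estrogen, 1121 ± 92.5 for progesterone alone and 2103 ± 242 for the combination (SD, n = 3 each). The progesterone mean was 53.9% of the placebo mean. Progesterone against estrogen gave a log2 change of -1.06 (SE 0.15), with a limma adjusted p of 0.0497, just inside the threshold. DDX17 41260_at was 1 of only 2 probe sets of 7535 called in that comparison (0.0265%), and the only helicase.

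The placebo comparison of DDX17 missed the threshold. Progesterone against placebo gave -0.91 (SE 0.15), with a limma adjusted p of 0.0789, while 3 of 7535 probe sets were called (0.0398%). Both hormones against progesterone gave 0.95 (SE 0.15), with a limma adjusted p of 0.0896 and 1 probe set called (0.0133%). By p, DDX17 stood at rank 5, rank 3 and rank 2 of 7535 for progesterone against placebo, both hormones against progesterone, and progesterone against estrogen. By size of change it stood at rank 93, rank 91 and rank 45. These comparisons share the progesterone arrays and are not independent of each other, and DDX17 was singled out with its values known.

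The remaining contrasts of DDX17 41260_at were small. Estrogen against placebo was 0.14, both hormones against placebo 0.04 and both hormones against estrogen -0.10. The interaction term, which asks whether the progesterone difference depends on estrogen, was 0.81 (SE 0.21, log2) for DDX17, with a limma adjusted p of 0.842. No helicase passed that adjusted test and no probe set on the array did (0%). At an unadjusted p under 0.05 the interaction held 1 of 24 helicase probe sets, DDX17 41260_at, against 4.99% of all probe sets. In limma's F test over the 4 group means, DDX17 had an adjusted p of 0.0614, and 0.0531% of probe sets were called.

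The call for DDX17 in progesterone against estrogen sat close to the threshold. It held under 4 of 23 other settings and was lost under 19, with limma adjusted p-values from 0.00853 to 0.435. Leaving out any 1 of the 12 arrays ended it, with adjusted p-values of 0.0546 (progesterone 1) to 0.267 (progesterone 3). With the replicate number as a block the adjusted p was 0.104. The log2 change itself lay between -1.13 and -0.99 over all of these settings.

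The dimmer DDX17 probe set, 35363_at, did not follow the brighter one. It read 582, 655 and 594 with placebo, 475, 672 and 561 with estrogen, 625, 563 and 634 with progesterone, and 487, 632 and 516 with both hormones. The groups overlapped in every comparison, and its log2 change with progesterone against placebo was 0.0078.

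The log2 difference between the DDX17 probe sets, brighter minus dimmer, was 1.64 to 1.86 with placebo and 0.68 to 0.96 with progesterone, without overlap. It was 1.82 to 2.21 with estrogen and 1.58 to 2.23 with both hormones. The mean with progesterone minus that with placebo was -0.92. Since 3 against 3 arrays have 20 splits, a 2-sided exact permutation test cannot go below 0.1, the p it gave, so this separation is a description and not a test passed. Which DDX17 transcripts each probe set reads was not analysed here.

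The serotonin marker sum, given above, was also lower on the progesterone arrays than on all placebo arrays, and the progesterone arrays had the lowest values on the second principal component, on which placebo 1 lay farthest out. The part of either in the DDX17 result was not tested. DDX17 is expressed in many cell types. Among the other marker lists, the sums of neurons, astrocytes, oligodendrocytes, microglia, endothelium, blood and cerebellum overlapped between progesterone and placebo. The astrocyte sum spanned 3408 to 7242 with placebo, and SLC1A2 in it ranged from 293 to 5208 over the arrays. Overlap of that sum therefore says little about the other astrocyte markers. At an unadjusted p under 0.05, 2 of 8 astrocyte markers were lower with progesterone and 0 higher, while the median log2 change of the 8 was 0.10. Of 6 tested microglia markers 1 was lower and 1 higher, at a median log2 change of 0.31. Without the estrogen 1 and both hormones 1 arrays, the DDX17 change with progesterone against placebo was -0.92, with a limma adjusted p of 0.0470. Neither array is in that comparison. In the same fit, progesterone against estrogen gave -1.07 and both hormones against progesterone 0.90, with limma adjusted p-values of 0.0749 and 0.108.

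The brighter DDX17 probe set was set beside the rest of the family on each array. Each tested probe set was centred on its mean over the 12 arrays, and the median of the 22 tested probe sets of the other helicase genes lay between -0.07 and 0.09 on every array. DDX17 41260_at minus this median was 0.19 to 0.20 with placebo, 0.30 to 0.36 with estrogen, -0.04 to 0.26 with both hormones and -0.85 to -0.57 with progesterone. This is a description, since DDX17 was singled out for its progesterone readings and a median over probe sets that differ in both directions stays near 0. A single member can still be low with progesterone, as DDX3X 39744_at was, described among the translation helicases. DDX17 also had the smallest spread of the 24 helicase probe sets around its group means, with a residual SD of 0.10 on the log2 scale against a median of 0.26 for the helicases and 0.30 for all tested probe sets.

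**Figure D2:**
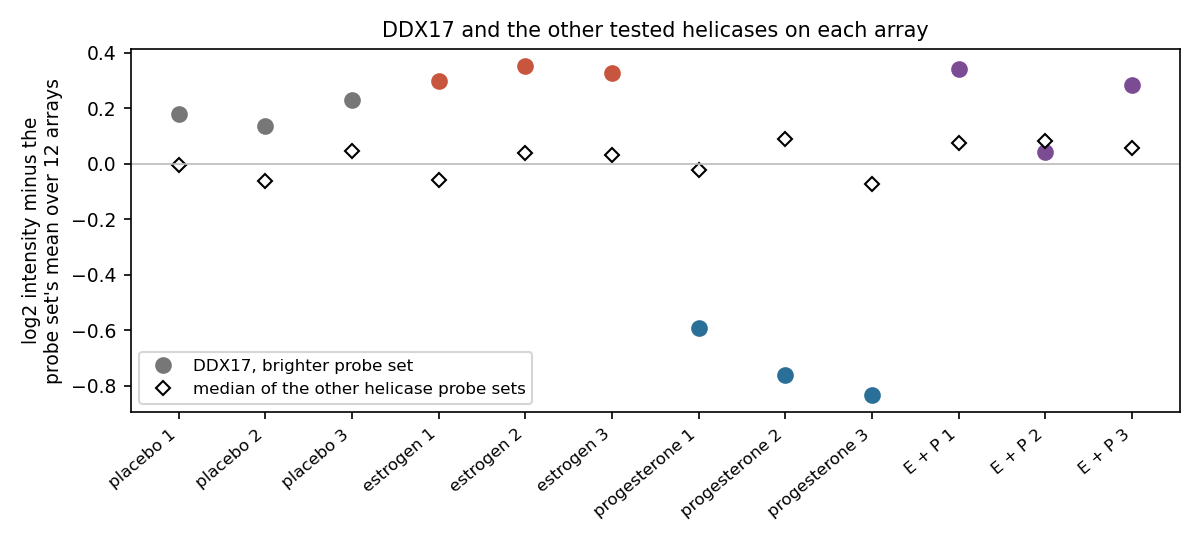
Log2 intensity of the brighter DDX17 probe set (filled circles, coloured by group) on each of the 12 arrays, centred on its own mean, with the median of the 22 other helicase probe sets, each centred in the same way (open diamonds). The diamonds stay between -0.07 and 0.09, while DDX17 is far below 0 on the 3 progesterone arrays only.

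Across the family, the changes against placebo were centred near 0. The median log2 change of the 24 probe sets was 0.05 for estrogen, -0.0015 for progesterone and 0.04 for the combination, beside -0.0047, 0.0022 and -0.0031 for all tested probe sets. Numbers higher and lower were 13 and 11 with estrogen, 12 and 12 with progesterone, and 15 and 9 with both hormones. Without DDX17, the progesterone changes ran from -0.40 (DDX3X) to 1.18 (DDX51).

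**Figure D3:**
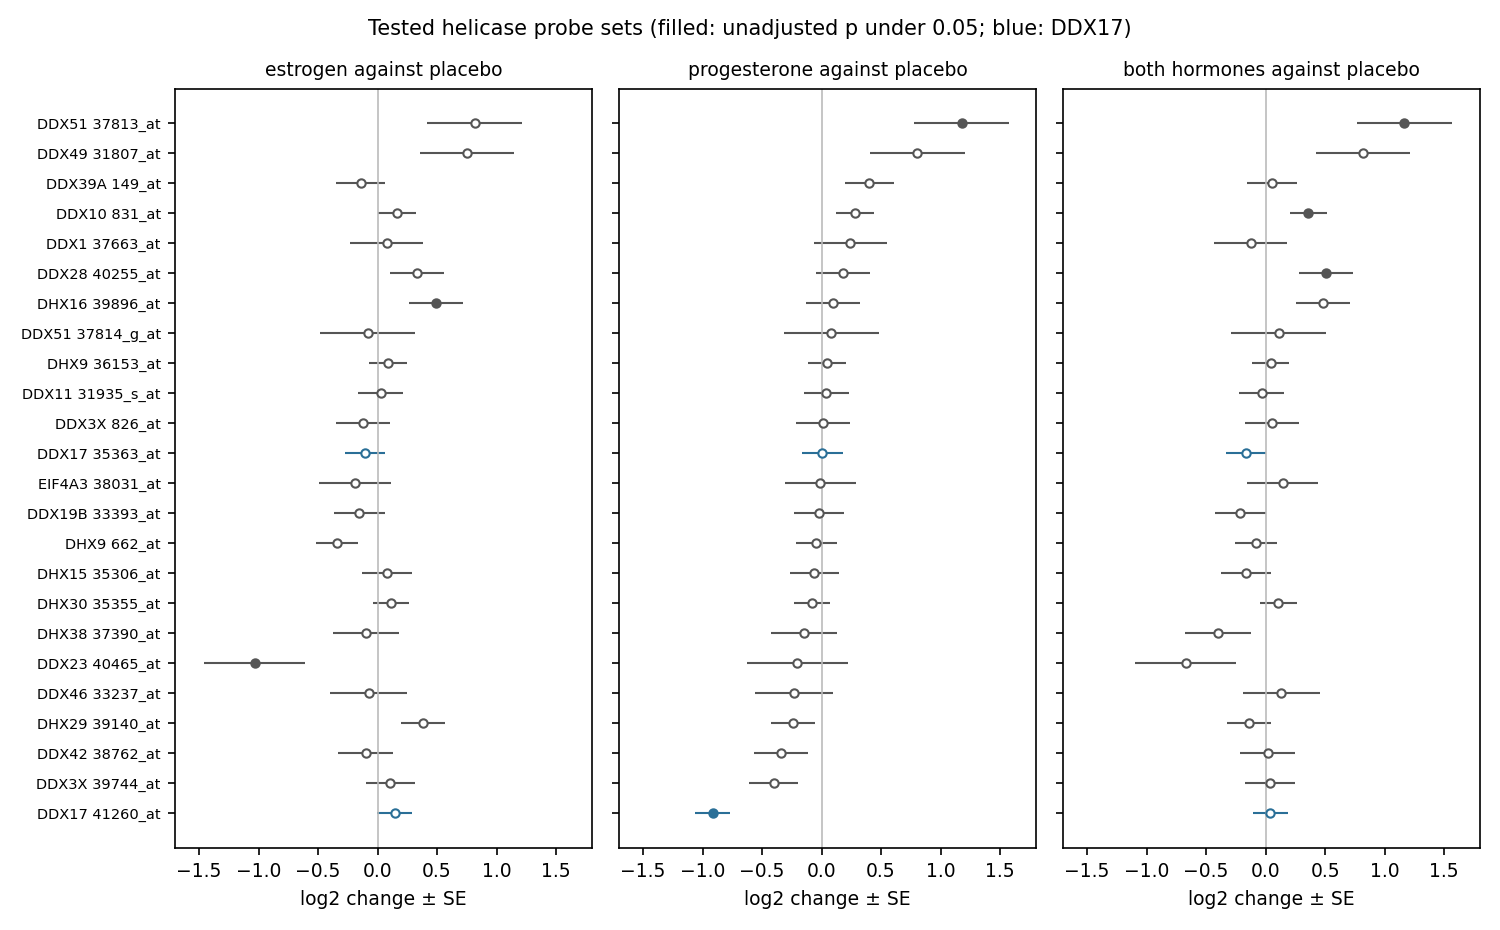
Log2 change with its SE from limma for the 24 tested helicase probe sets, in estrogen, progesterone and both hormones against placebo, ordered by the progesterone change. Filled points have an unadjusted p under 0.05 (2, 2 and 3 probe sets) and DDX17 is blue; its brighter probe set has the lowest progesterone change, and the remainder run from -0.40 to 1.18.

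No helicase passed limma's adjusted test against placebo. Probe sets called over the whole array were 0% for estrogen, 0.0398% for progesterone and 0.0133% for the combination. At an unadjusted p under 0.05 there were 2 helicase probe sets of 24 with estrogen (array-wide 3.16%), 2 with progesterone (8.24%) and 3 with both hormones (3.38%). Without the 2 arrays of high ribosomal signal these counts were 1, 3 and 1, beside 5.08%, 11.5% and 4.10% of all probe sets.

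Between hormone groups, 1 helicase probe set had an unadjusted p under 0.05 in both hormones against estrogen (array-wide 2.87%, with 0% past the adjusted threshold). Both hormones against progesterone gave 1, DDX17 (array-wide 7.71%), and progesterone against estrogen gave 4 (8.45%). In limma's F test 3 had an unadjusted p under 0.05, DDX17, DDX51 and DHX29, beside 5.79% of all probe sets.

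Groups did not overlap, on normalized values, for 6 of 24 helicase probe sets (25.0%) in estrogen against placebo, where 6.13% of all probe sets did so. The counts were 3 (12.5%, array-wide 16.7%) for progesterone against placebo and 3 (12.5%, array-wide 8.92%) for both hormones against placebo. They were 3 (array-wide 6.74%) for both hormones against estrogen, 4 (15.7%) for both hormones against progesterone, and 6 (13.9%) for progesterone against estrogen. The progesterone count lay below the share over all probe sets. The 6 of the estrogen comparison were DDX51, DHX16, DHX29 and DDX17 on the higher side and DDX23 and DHX9 on the lower side. For DDX17 and DHX29 that separation came with normalization, since the deposited estrogen and placebo readings overlapped.

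Ribosome assembly helicases had 8 genes on the array and 6 tested probe sets of 5 genes. Of the 6, 5 were higher under estrogen, 5 under progesterone and 6 under the combination, at median log2 changes of 0.25, 0.23 and 0.43; over all tested probe sets, 49.2%, 50.4% and 49.4% were higher. None passed the adjusted test, and 0, 1 and 3 had an unadjusted p under 0.05, beside array-wide shares of 3.16%, 8.24% and 3.38%. Without the 2 arrays of high ribosomal signal, only DDX51 37813_at kept an unadjusted limma p under 0.05 with both hormones. DDX10 and DDX28 did not, and the other tested DDX51 probe set was then at -0.04. The 3 comparisons share the placebo arrays, so their common direction is not independent.

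DDX51, a helicase of large ribosomal subunit assembly, had the lowest placebo readings relative to its hormone readings. Its probe set 37813_at read 45.7, 49.7 and 46.2 with placebo, 218, 53.6 and 57.2 with estrogen, 173, 97.3 and 96.99 with progesterone, and 149, 96.1 and 118 with both hormones. All 9 hormone readings lay above the 3 placebo readings, which were within 4 units of each other. The log2 change was 1.18 with progesterone (limma adjusted p = 0.474) and 1.17 with both hormones (limma adjusted p = 0.999), both with an unadjusted p under 0.05.

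With estrogen the DDX51 37813_at change was 0.82, and 0.24 without the 2 arrays of high ribosomal signal, 1 of which held the 218 reading. The progesterone and combined changes were 1.19 and 1.04 without those arrays. Other DDX51 probe sets did not show the pattern. Probe set 37814_g_at read 93.7, 73.4 and 163 with placebo and 129, 130 and 80.8 with progesterone, with log2 changes of -0.08, 0.08 and 0.11 in the 3 placebo comparisons, and 37815_at, at 1.58 to 14.7, was below the filter.

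DDX10, a nucleolar helicase of ribosomal RNA processing, read 102, 85.5 and 118 with placebo, 125, 104 and 120 with estrogen, 122, 128 and 121 with progesterone, and 134, 138 and 133 with both hormones. The readings with both hormones lay above all placebo readings, at a log2 change of 0.36 (limma adjusted p = 0.999, unadjusted p under 0.05), and of 0.23 without the placebo 2 array. With progesterone the change was 0.28 and the groups did not overlap either.

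DDX28, which acts in mitochondrial ribosome assembly, read 43.6, 81.6 and 92.7 with placebo on probe set 40255_at, against 112, 99.2 and 103 with both hormones. The log2 change was 0.50 (limma adjusted p = 0.999, unadjusted p under 0.05), and the change was 0.24 without the placebo 1 array, which held the lowest reading. Readings were 117, 92.1 and 67.0 with estrogen and 82.3, 84.4 and 70.9 with progesterone, both overlapping placebo. The highest readings, 117 and 112, came from the 2 arrays of high ribosomal signal. Without those arrays the change with both hormones was 0.48 and its unadjusted limma p was above 0.05. Probe set 40254_s_at, below the filter, read 9.16, 13.7 and 12.2 with placebo and 14.6, 17.8 and 14.9 with progesterone, without overlap. It read 13.2, 10.5 and 9.68 with estrogen and 15.1, 12.4 and 13.4 with both hormones.

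DDX49, a nucleolar helicase, varied widely within groups. It read 131, 89.3 and 49.8 with placebo, 273, 137 and 83.5 with estrogen, 172, 163 and 129 with progesterone, and 223, 123 and 142 with both hormones. Log2 changes were 0.75, 0.81 and 0.82, with every hormone group overlapping placebo. The highest readings of DDX49 were on the 2 arrays of high ribosomal signal, and without them the estrogen change was 0.35. DHX30, which acts on mitochondrial ribosomes, stayed between 566 and 747 on all 12 arrays.

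Splicing helicases formed the largest role group, with 9 genes on the array and 9 tested probe sets of 8 genes, DDX17 among them. Their median log2 changes were -0.10 for estrogen, -0.15 for progesterone and 0.02 for the combination. With progesterone 6 of the 9 were lower and 3 higher than placebo, where 50.4% of all tested probe sets were higher. At an unadjusted p under 0.05 there were 2 of the 9 with estrogen, 1 with progesterone (DDX17 41260_at) and 0 with both hormones. The array-wide shares were 3.16%, 8.24% and 3.38%.

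DDX23, a component of a small nuclear ribonucleoprotein of the spliceosome, read 139, 103 and 93.9 with placebo, 29.5, 57.3 and 79.8 with estrogen, 85.8, 101 and 96.5 with progesterone, and 34.8, 107 and 87.5 with both hormones. All estrogen readings lay below all placebo readings, at a log2 change of -1.03 (limma adjusted p = 0.9999, unadjusted p under 0.05). The lowest DDX23 readings were on the 2 arrays of high ribosomal signal. Without those arrays the estrogen change was -0.60 (limma adjusted p = 0.947), and the change with both hormones went from -0.67 to -0.20.

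DHX16, which remodels the spliceosome before its first catalytic step, read 81.5, 81.0 and 53.3 with placebo, 136, 98.8 and 84.5 with estrogen, 85.5, 78.4 and 65.8 with progesterone, and 138, 85.2 and 99.7 with both hormones. The estrogen change was 0.49 (limma adjusted p = 0.9999, unadjusted p under 0.05), and without the 2 arrays of high ribosomal signal, which held the 2 highest readings, it was 0.36. Without the placebo 3 array, which held the lowest reading, it was 0.30. The part of the ribosomal signal in these DDX23, DHX16, DDX28, DDX49 and DDX51 readings was not tested.

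DDX39A, which works in splicing and in the export of messenger RNA, read 113, 211 and 145 with progesterone and 104, 109 and 96.8 with estrogen. That comparison gave a log2 change of 0.54 with an unadjusted p under 0.05 and a limma adjusted p of 0.539. With placebo it read 124, 108 and 108, overlapping progesterone.

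The remaining tested splicing helicases gave no separation from placebo in any hormone group. DDX42, an early spliceosome factor, ranged from 528 to 1007, with a log2 change of -0.34 with progesterone. DDX46, which acts at branch site recognition, ranged from 70.8 to 216. DHX15, which takes spent spliceosomes apart, ranged from 149 to 245, and DHX38, which acts before the second step of splicing, from 133 to 347. Both the lowest DHX38 and the highest DDX46 reading came from the both hormones 1 array.

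**Figure D4:**
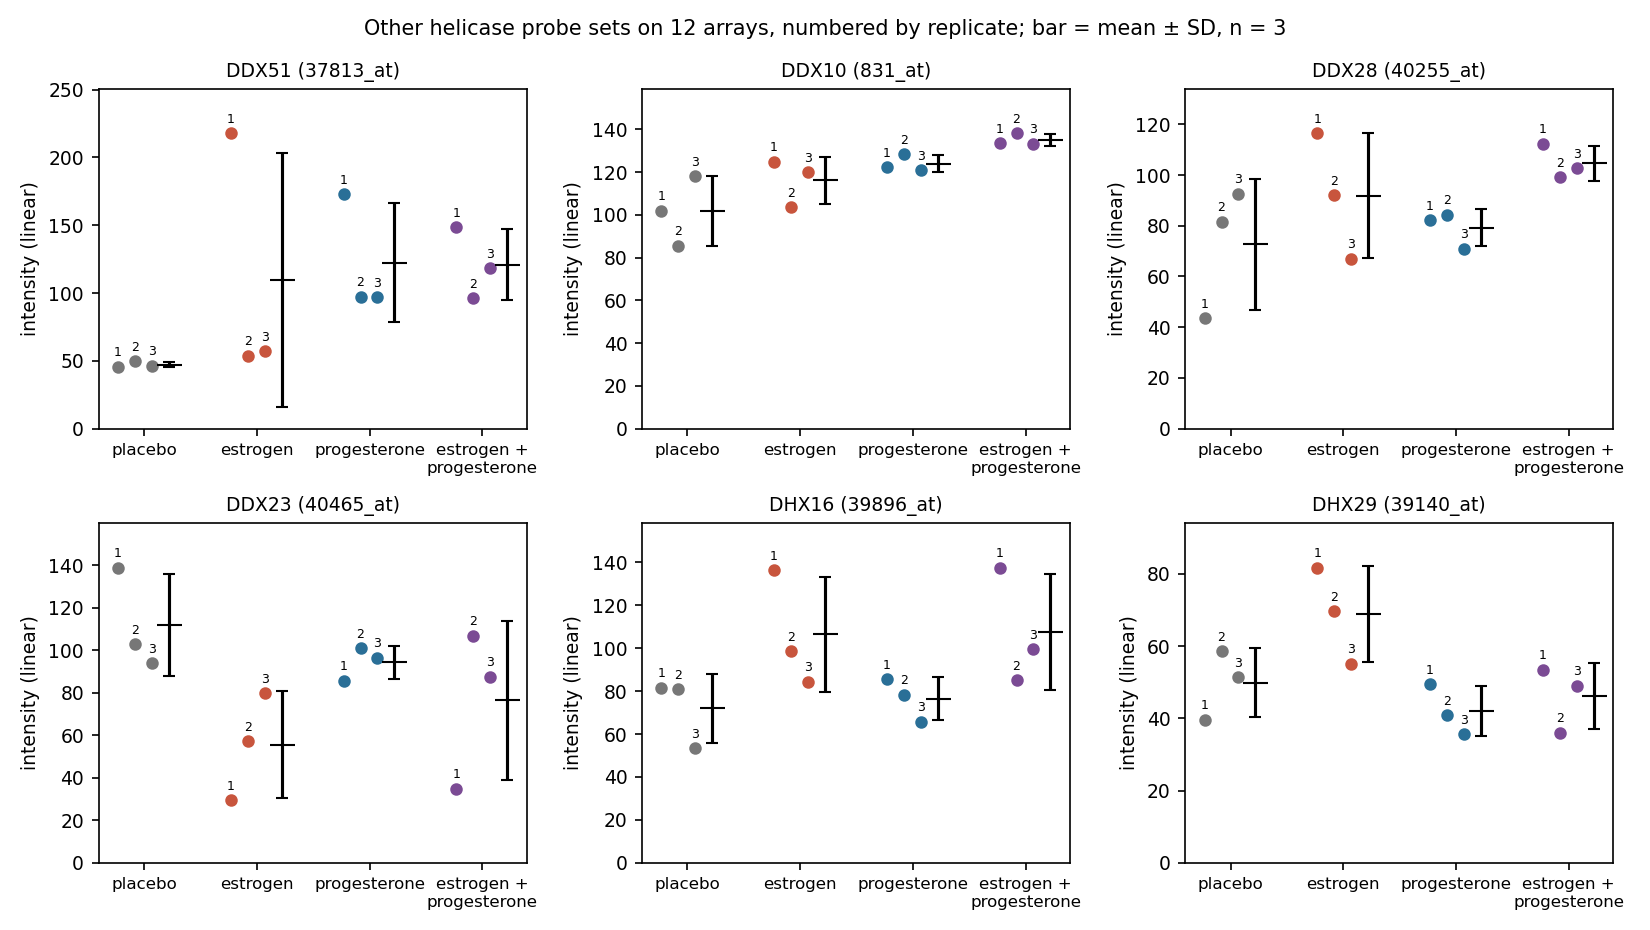
Intensity as deposited (linear axis from 0) of DDX51 (37813_at), DDX10, DDX28 (40255_at), DDX23, DHX16 and DHX29 in the 4 groups, with arrays numbered by replicate and bars for the mean with SD, n = 3. For DDX51 all 9 hormone readings lie above the 3 placebo readings. Estrogen array 1, which had high ribosomal signal, gave the lowest estrogen reading for DDX23 and the highest for DDX51, DDX10, DDX28, DHX16 and DHX29.

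Among translation initiation helicases, DDX3X, an X-linked helicase that helps translate structured messenger RNAs, had its lowest readings with progesterone on the brighter of its probe sets. Probe set 39744_at read 872, 735 and 923 with placebo, 717, 1194 and 856 with estrogen, 680, 717 and 506 with progesterone, and 808, 882 and 875 with both hormones. Against placebo the log2 change was -0.40 (limma adjusted p = 0.665), and against estrogen -0.51 (limma adjusted p = 0.558, unadjusted p under 0.05). As deposited, the 3 progesterone readings lay below all placebo and combined readings, though after normalization they overlapped placebo. As deposited, 1 progesterone reading and 1 estrogen reading were 717, and these groups were separate after normalization.

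The dimmer DDX3X probe set, 826_at, ranged from 109 to 201 and differed by 0.01 on the log2 scale between progesterone and placebo. As with DDX17, the brighter and dimmer DDX3X probe sets did not move alike with progesterone. DDX3X 39744_at was not called in any comparison.

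DHX29, which helps ribosomes scan structured leaders, read 39.7, 58.5 and 51.4 with placebo, 81.7, 69.7 and 55.1 with estrogen, 49.5, 40.8 and 35.7 with progesterone, and 53.4, 36.0 and 49.0 with both hormones. Its estrogen readings lay above all progesterone and all combined readings. The log2 change was -0.62 for progesterone against estrogen (limma adjusted p = 0.451) and -0.52 for both hormones against estrogen (limma adjusted p = 0.999995), both with an unadjusted p under 0.05. The highest reading, 81.7, came from the estrogen 1 array of high ribosomal signal. Without the 2 arrays of high ribosomal signal these changes were -0.57 and -0.52. These levels were near the lower limit for testing.

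Helicases of the exon junction, export and decay were mostly too dim to test. EIF4A3, the helicase at the heart of the exon junction complex, ranged from 59.8 to 140, with a log2 change of -0.01 with progesterone. DDX19B, which releases messenger RNA at the nuclear pore, ranged from 98.9 to 162. Both groups of readings overlapped placebo under every hormone. DDX19A, DDX6 and DHX34 were below the filter, and DDX6, a repressor of translation and promoter of decapping, read 4.05 to 44.8.

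DHX9, a nuclear helicase of RNA and DNA, was tested on both of its probe sets, which did not move alike with estrogen. Probe set 36153_at ranged from 193 to 255 and 662_at from 177 to 266. On 662_at the estrogen readings of 177, 245 and 193 lay below the placebo readings of 259, 253 and 264, at a log2 change of -0.34 (limma adjusted p = 0.9999), while 36153_at gave 0.09. DDX1, which takes part in transfer RNA ligation, ranged from 529 to 1232 with overlap in every comparison. DDX11, a DNA helicase of sister chromatid cohesion that carries the family name, ranged from 317 to 471.

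The 12 untested helicase probe sets read between 1.22 and 79.7, with medians over the arrays of 2.74 to 40.9. At least 1 reading was under the offset of 8.26 for 8 of them. The 9 genes with no tested probe set were DDX19A, DDX21, DDX27, DDX3Y, DDX52, DDX6, DHX34, DHX57 and DHX8. The Y-linked DDX3Y read 3.44 to 25.1 in these female monkeys. DHX8 744_at, of the splicing group, read 68.3, 26.7 and 50.1 with placebo and 16.2, 24.8 and 15.4 with progesterone. It read 26.1, 23.9 and 35.6 with estrogen and 23.9, 15.9 and 14.0 with both hormones. As deposited, its progesterone readings lay below all placebo readings, but DHX8 was not tested.

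Genes that work with these helicases were counted from 5 lists. None passed the adjusted limma test against placebo with any hormone treatment. Each list held 0 to 2 probe sets with an unadjusted p under 0.05 in a placebo comparison, where 3.16% of all probe sets had one for estrogen, 8.24% for progesterone and 3.38% for the combination. Those named below are a description by size of p, not changes. For the complex that binds the messenger RNA cap and its regulators, 13 probe sets of 11 genes were tested, with a median log2 change of -0.13 with progesterone. Both probe sets of EIF4G1, the scaffold that binds EIF4A proteins, were lower with progesterone, at -0.55 (limma adjusted p = 0.560) and -0.46 (limma adjusted p = 0.601), each with an unadjusted p under 0.05. EIF4EBP2, a repressor of translation initiation, was at -0.59 with both hormones.

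For partners of DDX5 and DDX17, 17 probe sets of 12 genes were tested and 1 in each placebo comparison had an unadjusted p under 0.05, a number close to those shares. CREBBP, a histone acetyltransferase and coactivator, was at -0.76 with progesterone (limma adjusted p = 0.393). MYOD1, a muscle transcription factor, was at -1.19 with estrogen. EP300, the paralog of CREBBP, was at 0.70 with both hormones on probe set 551_at and at 0.21 on its other probe set.

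The remaining lists held few such probe sets. Of 12 probe sets of 9 exon junction and nonsense-mediated decay genes, RNPS1 was at -0.77 with estrogen. Of 23 probe sets of 16 spliceosome partners of DEAH helicases, PRPF19 was at 0.90 with both hormones and its other probe set at -0.18. Of 6 RNA helicases outside the DEAD and DEAH groups, MTREX, the helicase of the nuclear exosome, was at -0.59 with both hormones. Each of these had an unadjusted limma p under 0.05 and an adjusted p of 0.999 or higher.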

How the data were processed

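The authors deposited linear intensity values, 1 for each of 12625 probe sets, for all 12 arrays. From the values, arrays had been scaled to a trimmed mean of about 200.1 (2% trimmed from each end). Probe summarisation is not given in the sources used here. Array medians lay between 74.2 and 87.1, and 3 arrays per group limit the precision. Replicates are separate monkeys.

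The 67 control probe sets were removed, 8.26 (the pooled 10th percentile) was added, log2 was taken, and arrays were quantile normalized because their log2 medians spanned 0.20, above a limit of 0.15. This scale understates changes of dim probe sets. The lowest 40% by mean were left out, and limma 3.58.1 (R 4.3.3; lmFit, eBayes) was fitted over all 12 arrays, 2-sided, and p-values were adjusted over 7535 probe sets by Benjamini-Hochberg. The fit was tested on simulated data with known answers.

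Members, lists and tests were chosen with earlier results of these data known. Named in full were DDX17, members at an unadjusted p under 0.05 in a placebo comparison or in both hormones against progesterone, and members whose progesterone arrays lay outside the placebo range. Other probe sets were described by range, and those of progesterone against estrogen, DDX49 and DHX9 were chosen after their values were seen. Up to 2 genes per list and direction were named for partner lists.

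Alternatives were the scaling, filter, offset, variance trend with robust fitting, array weights, 1 probe set per gene, only the groups compared, a replicate block, each array left out, and both arrays of high ribosomal signal left out. Deviations of same-numbered estrogen and both hormones arrays correlated at 0.13 to 0.41. The highest value, 0.41, was between the estrogen 1 and both hormones 1 arrays, which share high ribosomal signal. These values cannot decide whether the numbers mark a pairing, since that signal may enter them, and the labels state no pairing. Over all 18 same-numbered pairs of arrays the range was -0.22 to 0.41. The platform's probe table names the genes, and 28 of the 29 symbols are in the macaque RefSeq table. Sequences were not used here.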

Additional observations from a re-analysis of the deposited data

How the results depend on the processing

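With 3 arrays per group, adjusted calls on single helicases moved easily. The progesterone against estrogen count, 1 (DDX17), was 0 with values as deposited, a common median, no filter, an offset divided by 4, no arrays of high ribosomal signal, the replicate block, or only the groups compared, and 0 on leaving out each array. Progesterone against placebo went from 0 to 1 (DDX17) with variance trend and robust fitting (-0.91), array weights (-0.95) and without the arrays of high ribosomal signal (-0.92). Both hormones against progesterone went from 0 to 1 (DDX17) with an offset 4 times as large (0.94), variance trend and robust fitting (0.95) and array weights (0.97), and the F test went from 0 to 1 under the last 2 of these.

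Counts at an unadjusted p under 0.05 also moved. Estrogen against placebo, 2 in the report, was 1 with values as deposited, no filter, an offset 4 times as large, variance trend and robust fitting, no arrays of high ribosomal signal, or only the groups compared. It was 0 with the lowest 60% left out, 4 with the replicate block, and 0 to 4 on leaving out each array. Progesterone against placebo, also 2, was 4 with no filter, 1 with the lowest 60% left out, 5 with array weights and 1 with 1 probe set per gene. The share of all probe sets was 7.56% with no filter, 8.44% with the lowest 60% left out and 12.8% with array weights, beside 8.24%. For estrogen and for both hormones it lay between 2.46% and 6.03% under the settings named here other than leaving out an array. On leaving out each array this share lay between 2.68% and 4.43% for estrogen and between 2.88% and 4.91% for both hormones. Both hormones against placebo, 3, was 1 with a common median, an offset 4 times as large, variance trend and robust fitting, no arrays of high ribosomal signal, or only the groups compared, 0 with the lowest 60% left out, and 1 to 5 on leaving out each array. The helicase median with estrogen was -0.0536 (without estrogen 2) to 0.11 on leaving out each array. No result of these reversed its direction past a call. A paired fit of only the estrogen and both hormones arrays, chosen after seeing the data, called 0 of all probe sets and had 1 helicase of 24 at an unadjusted p under 0.05, beside 350 of 7535 probe sets. The causes were not tested.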
